A study of Homo sapiens with 6 samples.

Results

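The genes considered here were MDM2, MDM4, GADD45A, GADD45B, GADD45G, RRM2B, ZMAT3, BTG2 and TP53I3, a set of p53-dependent and GADD45 stress genes. Members were the probe sets of the deposited value table whose annotation names a single gene that is on this list of 9 genes. In all, 29 probe sets of 8 genes were found among the 41091 probe sets that name 1 of 19775 genes. BTG2 is named by no probe set in the annotation used and was not analysed here. Gene expression was measured with the Affymetrix human genome U133 Plus 2.0 array, 1 array per sample, in triplicates of LP-1/Cfz and of parental LP-1, a cell line from human multiple myeloma. LP-1/Cfz cells are a derivative of LP-1 that was selected in carfilzomib, a proteasome inhibitor, until it grew at 12 nM, and it was profiled once it had been cultured for 1 week with no drug. Parental LP-1 cells never underwent this selection and were profiled beside them. The labels give medium with 4% fetal bovine serum for both. LP-1/Cfz is a single resistant line, so that what separates it from LP-1 is the outcome of 1 selection.

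The p53 protein is a transcription factor that is stabilised by DNA damage and other stress and that switches on genes for cell cycle arrest, repair and death. MDM2 is the ubiquitin ligase that marks p53 for destruction by the proteasome and is itself a p53 target, while MDM4 is a related protein that binds p53 and restrains its activity. GADD45A, GADD45B and GADD45G are small acidic nuclear proteins induced by stress, in part by p53 and in part by NF-kappaB and other factors, which bind the kinase MAP3K4, PCNA and the CDK1 complex. Proteasome inhibitors are a main class of drugs against myeloma, the cancer of plasma cells.

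The deposited values show the GADD45B and GADD45G transcripts moving in opposite directions and MDM2 moving on 6 of its probe sets, so the sequences around the start sites of these genes are shown. The GADD45B window is chr19:2475877-2476176 on the plus strand and the GADD45G window is chr9:89604762-89605061 on the plus strand, each with 250 bases before the annotated start site and 50 bases from it on (RefSeq, GRCh38.p14). In both, capitals mark CACGTG (an E-box), CCAAT and TATAA, searched on both strands.
GADD45B: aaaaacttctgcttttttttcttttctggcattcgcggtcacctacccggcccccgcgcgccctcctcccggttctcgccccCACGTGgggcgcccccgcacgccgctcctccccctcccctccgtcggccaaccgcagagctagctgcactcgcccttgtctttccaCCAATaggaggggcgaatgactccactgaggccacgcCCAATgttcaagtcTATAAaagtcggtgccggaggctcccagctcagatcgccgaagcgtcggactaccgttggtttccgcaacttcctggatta
GADD45G: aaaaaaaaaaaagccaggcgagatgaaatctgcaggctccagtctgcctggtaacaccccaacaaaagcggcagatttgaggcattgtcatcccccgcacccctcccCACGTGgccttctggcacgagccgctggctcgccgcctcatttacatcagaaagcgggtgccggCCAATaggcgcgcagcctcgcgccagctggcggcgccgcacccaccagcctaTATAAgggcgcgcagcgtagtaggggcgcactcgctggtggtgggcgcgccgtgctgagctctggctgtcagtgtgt
These paralogous genes share the same order of letters, with CACGTG at position -168 in GADD45B and -143 in GADD45G, a CCAAT at -82 in GADD45B and -79 in GADD45G, and TATAA at -31 in GADD45B and -27 in GADD45G, counted from the start site. GADD45B has a further CCAAT at -45. Of 35116 promoter windows of this length, 7.26% hold CACGTG, 34.6% CCAAT and 20.4% TATAA, and 125 (0.356%) hold all of them. The kappaB motif was found in the GADD45B window at -163, where it shares 1 base with the CACGTG, and at -15, and in 11.3% of all windows. No kappaB match was found in the GADD45G window.

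MDM2 has an upstream start and an internal start, the internal one being known for its response to p53. The window of the internal start, chr12:68808767-68809066 on the plus strand, is shown because it holds a match to the p53 element, the paired half-sites that p53 binds, which is in capitals.
MDM2, internal start: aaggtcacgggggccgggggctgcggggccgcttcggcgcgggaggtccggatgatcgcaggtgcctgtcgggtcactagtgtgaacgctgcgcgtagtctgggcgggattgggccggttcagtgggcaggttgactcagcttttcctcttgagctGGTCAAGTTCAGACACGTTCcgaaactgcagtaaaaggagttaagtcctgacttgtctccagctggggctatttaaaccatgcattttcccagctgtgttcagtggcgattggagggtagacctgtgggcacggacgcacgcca
The match begins at position -94, spans 20 bases and has 2 mismatches to the consensus. With as many as 2 mismatches allowed, 0.649% of the 35116 windows hold such an element, and the window of the upstream MDM2 start (chr12:68807922-68808221) does not. A match is a string of letters and says nothing about binding in these cells.

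The deposited values are log2 values that were centred, probe set by probe set, on an unstated zero point. A value can therefore be compared between arrays but tells neither how strongly a gene was expressed nor whether it was detected. Differences are given as LP-1/Cfz minus LP-1, and a probe set was called at a limma adjusted p under 0.05 over all 54613 probe sets. Array medians were between 0.00302 and 0.0215. LP-1/Cfz replicate 3 stood apart, as its values had an interquartile range of 0.338, where the other 5 arrays had 0.23 to 0.264, and it had correlations of 0.903 and 0.891 with LP-1/Cfz replicates 1 and 2, which correlated at 0.941. Of the 9 genes listed as plasma cell markers, 4 had higher values in LP-1/Cfz, 2 had lower ones and 3 were not called. The higher ones were NSD2 (log2 difference 0.78), MZB1 (0.39), SDC1 (0.38) and TNFRSF17 (0.27, lost without LP-1 replicate 2 or 3). The lower ones were SLAMF7 (-2.17) and CD38 (-1.07). The study describes NSD2, there WHSC1, as a histone methyltransferase gene activated in LP-1 by a chromosomal translocation, so it is no general plasma cell marker here. Among markers of other cells, CD8A was higher (0.34) and GNLY lower (-0.30) of 12 T and NK cell genes, ACTA2 was lower (-0.32) of 8 stromal genes, and 0 of 9 myeloid genes were called in limma (1 lower at an unadjusted p under 0.05). CD8A was called only without LP-1/Cfz replicate 2 among the fits that leave out 1 array, GNLY lost its call without LP-1 replicate 1 or 2, and ACTA2 without LP-1 replicate 1. The mean value of the T and NK list ranged between -0.08 and 0.12 on the LP-1/Cfz arrays and between -0.04 and -0.02 on the LP-1 arrays, that of the myeloid list between -0.07 and 0.13 in LP-1/Cfz and between 0.02 and 0.04 in LP-1, and that of the stromal list between -0.00 and 0.08 in LP-1/Cfz and between 0.03 and 0.04 in LP-1. ACTA2 had 1 of 3 probe sets called, with differences between -1.03 and 0.15, CD8A 0 of 1 and GNLY 0 of 2. Whether any marker is at zero cannot be read from centred values, and the part of the markers in the results was not tested.

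Of the 29 member probe sets, 12 (41.4%) were called, 9 lower and 3 higher, and 17 were not called. Of all probe sets 11.0% were called, 4.25% higher and 6.76% lower. These include probe sets that name no gene or several. In a fit of only the 41091 single-gene probe sets, 2212 were higher and 3565 lower. The LP-1/Cfz and LP-1 arrays did not overlap on 14 members, 4 above and 10 below, against 30.7% of all probe sets. The median difference of the members was -0.03 beside 0.02 for all probe sets, and their median absolute difference was 0.118 beside 0.105. No member reached a 1.7-fold difference, a size that 1.59% of all probe sets reached. With 1 value per gene, GADD45B was higher, MDM2 and GADD45G were lower and 5 genes were not called, against 16.7% of all genes called (6.72% higher, 10.0% lower). The groups were separate on 4 of the 8 genes, GADD45B above and MDM2, GADD45G and ZMAT3 below, as they were on 35.9% of all genes (16.6% above, 19.3% below). The members are probe sets of few genes, so that several of them read the same transcripts. Nothing in the labels says that the triplicates came from separate cultures, so that p-values reflect only how far these samples scatter, possibly for technical reasons, and in bulk samples fewer cells of a type and less RNA per cell cannot be told apart.

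**Figure D1:**
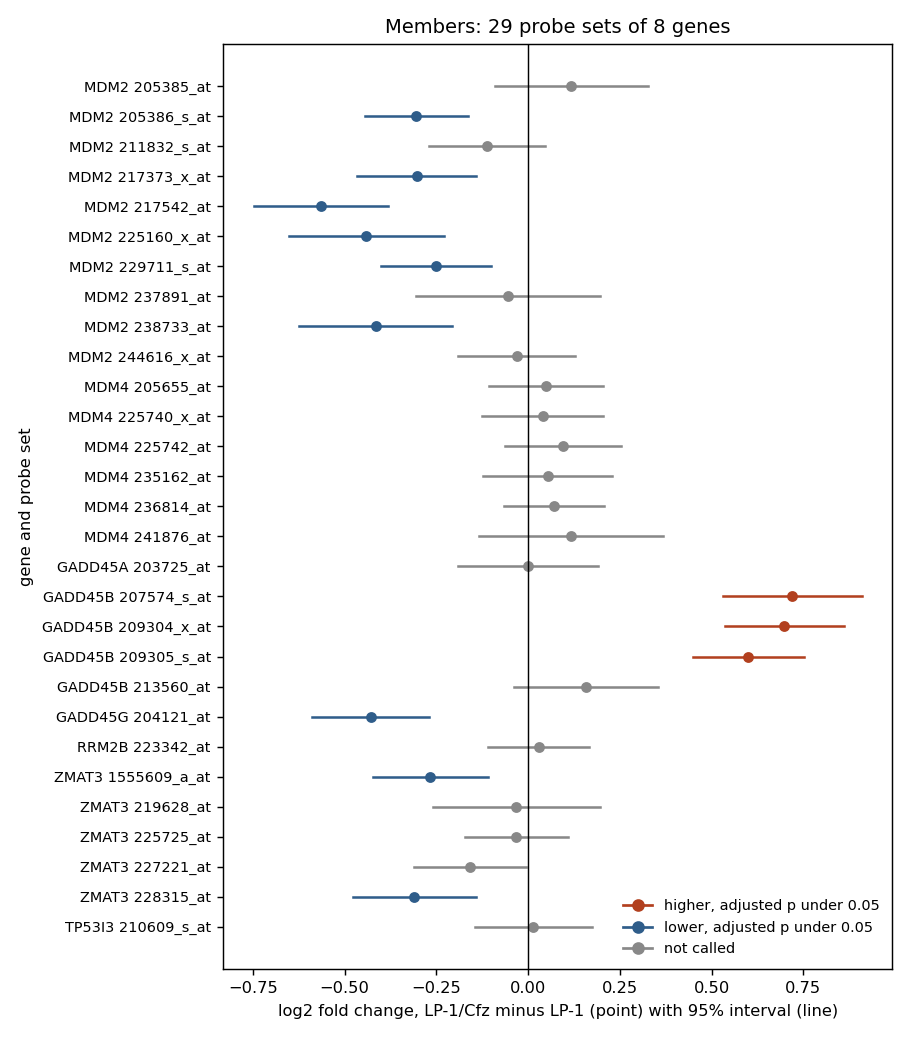
Log2 fold change, LP-1/Cfz minus LP-1 (x axis), with its 95% interval for each of the 29 member probe sets (y axis, by gene), from limma on 3 LP-1/Cfz and 3 LP-1 arrays. The 3 higher calls are all GADD45B, and the 9 lower calls are 6 of MDM2, 2 of ZMAT3 and 1 of GADD45G.

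GADD45B, a stress and cytokine responsive gene, gave the largest differences of the set. Probe set 207574_s_at read -0.81, -0.68 and -0.73 on the LP-1/Cfz arrays and -1.35, -1.61 and -1.41 on the LP-1 arrays. Every LP-1/Cfz array was above every LP-1 array, and the difference of 0.72 (SE 0.0822, 95% interval 0.53 to 0.91, n = 3 each, limma adjusted p = 0.00137) is 1.65-fold. Probe set 209304_x_at read -0.57, -0.50 and -0.63 in LP-1/Cfz and -1.28, -1.34 and -1.18 in LP-1, again without overlap, a difference of 0.70 (SE 0.0699, limma adjusted p = 0.000724) or 1.62-fold. Probe set 209305_s_at read -0.55, -0.58 and -0.54 in LP-1/Cfz and -1.14, -1.08 and -1.24 in LP-1, a difference of 0.60 (SE 0.0654, limma adjusted p = 0.0011) or 1.52-fold. The LP-1/Cfz arrays lay closest together on this last probe set, with an SD of 0.0197 against 0.0822 in LP-1.

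The remaining GADD45B probe set, 213560_at, read -0.08, 0.01 and 0.10 in LP-1/Cfz and -0.01, -0.27 and -0.16 in LP-1. The groups overlapped there, and the difference of 0.16 (95% interval -0.04 to 0.35, limma adjusted p = 0.307) did not pass the test. Its interval ends below the lower bounds of the other 3 probe sets, the lowest of which is 0.45. The 3 called probe sets all carry the array's _s_at or _x_at suffix, which marks probes that can read more than 1 transcript or related sequences, and 213560_at does not. Averaged over its 4 probe sets, GADD45B was higher by 0.54 (SE 0.0531, limma adjusted p = 0.000432 over 19775 genes). The 3 probe sets kept their calls in each of the 6 fits that leave out 1 array, where their largest adjusted p was between 0.0059 and 0.00797.

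GADD45G, a family member that is also induced by cytokines, was represented by 204121_at alone. It read -0.31, -0.45 and -0.49 on the LP-1/Cfz arrays and 0.02, -0.01 and 0.02 on the LP-1 arrays. All LP-1/Cfz arrays lay below all LP-1 arrays, and GADD45G fell by 0.43 on the log2 scale (SE 0.069, 95% interval -0.59 to -0.27, limma adjusted p = 0.00646), a value 1.35-fold lower in LP-1/Cfz. The call held whichever array was left out.

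GADD45A, the family member most closely tied to p53, read -1.64, -1.60 and -1.87 in LP-1/Cfz and -1.70, -1.70 and -1.71 in LP-1 on its probe set 203725_at. The LP-1 values lay within the range of the LP-1/Cfz values, whose lowest is that of replicate 3. The difference was -0.00056 (95% interval -0.19 to 0.19, limma adjusted p = 0.998). When the arrays were quantile normalized again it was 0.25, with an adjusted p of 0.0843 among probe sets and 0.0472 among genes, so that the sign and, among genes, the call of GADD45A depend on the scaling.

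**Figure D2:**
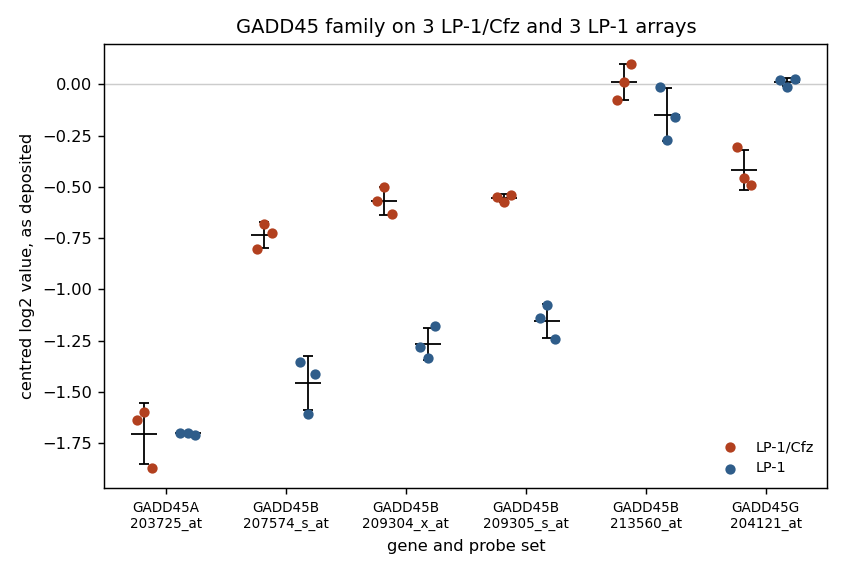
Deposited centred log2 value (y axis) of each GADD45 probe set (x axis) on 3 LP-1/Cfz arrays (red) and 3 LP-1 arrays (blue), with horizontal bars for the mean and error bars for the SD. Heights can be compared between groups within a probe set but not between probe sets, and the groups are separate on 3 of 4 GADD45B probe sets and on GADD45G.

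Within the family, taking each gene relative to its LP-1 mean, GADD45B minus GADD45G was 0.83, 1.04 and 1.06 in LP-1/Cfz and 0.05, -0.04 and -0.01 in LP-1. GADD45B minus GADD45A was 0.44, 0.47 and 0.73 in LP-1/Cfz and 0.06, -0.07 and 0.01 in LP-1. As GADD45B was above and GADD45G below LP-1 on every LP-1/Cfz array, the first of these gaps restates their own differences and is no further evidence. Nor is the second, which restates the GADD45B difference, as GADD45A differed by -0.00056. A two-sided exact permutation test on 3 against 3 arrays cannot give a p under 0.1. The 3 genes whose pattern over the 6 arrays was most like that of GADD45B were GDPD1 (Pearson r = 0.999), FDPS (0.999) and ADCK2 (0.998), and 218 genes had an r above 0.98, out of 19775. These correlations include the difference between the groups, and the 3 genes were themselves higher in LP-1/Cfz (0.24, 0.30 and 0.36). Shared control with GADD45B was not tested.

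MDM2 was read by 10 probe sets, 6 of them lower in LP-1/Cfz, 4 not called and 0 higher (limma, and 0 higher also at an unadjusted p under 0.05). The largest difference was on 217542_at, which read -0.52, -0.61 and -0.71 in LP-1/Cfz and 0.02, -0.16 and 0.00 in LP-1. The groups did not overlap, and the difference of -0.56 (SE 0.0791, 95% interval -0.75 to -0.38, limma adjusted p = 0.00348) is 1.48-fold lower in LP-1/Cfz. Probe set 225160_x_at read -0.07, -0.02 and -0.18 in LP-1/Cfz and 0.30, 0.23 and 0.53 in LP-1, a difference of -0.44 (SE 0.0913, limma adjusted p = 0.0193). Probe set 238733_at read -0.94, -0.75 and -0.74 in LP-1/Cfz and -0.39, -0.26 and -0.53 in LP-1, a difference of -0.42 (SE 0.0901, limma adjusted p = 0.0234). On these 2 probe sets, too, every LP-1/Cfz array lay below every LP-1 array.

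The other MDM2 calls were smaller. Probe set 205386_s_at read -0.13, -0.13 and -0.15 in LP-1/Cfz and 0.17, 0.10 and 0.22 in LP-1, a difference of -0.30 (SE 0.0611, limma adjusted p = 0.0169), and its LP-1/Cfz values had an SD of 0.0136. Probe set 217373_x_at differed by -0.30 (limma adjusted p = 0.0303) and 229711_s_at by -0.25 (limma adjusted p = 0.0457), both without overlap. The 4 probe sets that were not called had differences of 0.12 (205385_at, 95% interval -0.09 to 0.33), -0.11 (211832_s_at, -0.27 to 0.05), -0.06 (237891_at, -0.31 to 0.20) and -0.03 (244616_x_at, -0.19 to 0.13). The groups overlapped on each of them.

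**Figure D3:**
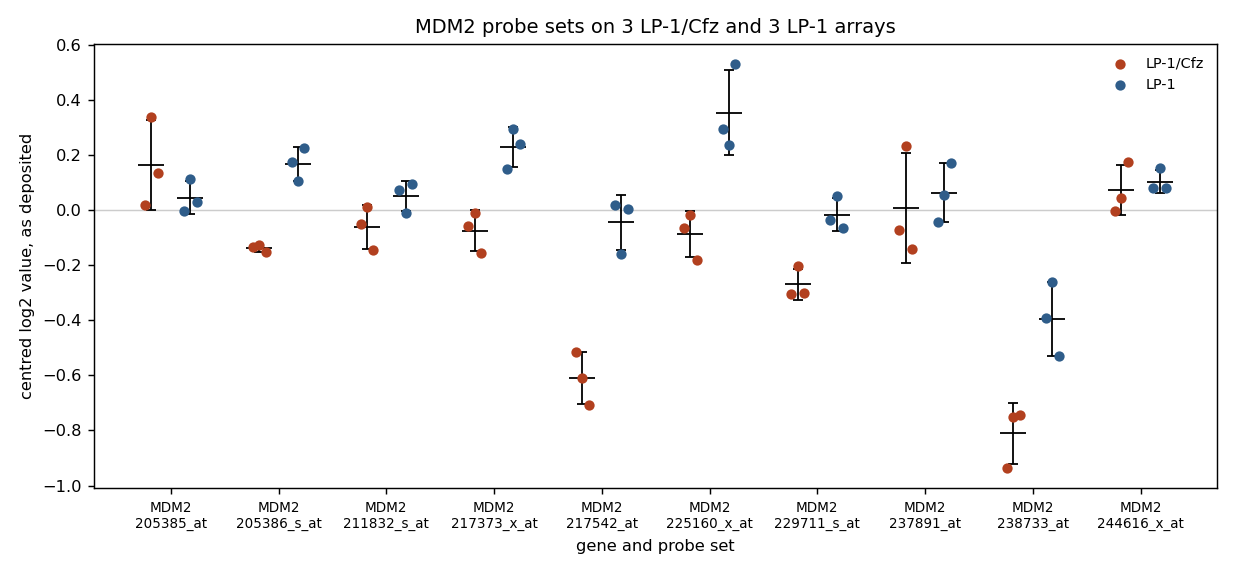
Deposited centred log2 value (y axis) of the 10 MDM2 probe sets (x axis) on 3 LP-1/Cfz arrays (red) and 3 LP-1 arrays (blue), with horizontal bars for the mean and error bars for the SD. The LP-1/Cfz arrays lie below the LP-1 arrays on 6 probe sets, with the widest gap on 217542_at, and overlap with them on the other 4.

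Averaged over all 10 probe sets, MDM2 fell by 0.24 on the log2 scale (SE 0.052, limma adjusted p = 0.0186 over all genes). Of the 6 probe set calls, that of 217542_at held whichever array was left out. The call of 205386_s_at was lost without LP-1/Cfz replicate 1, LP-1 replicate 1 or LP-1 replicate 3, and that of 238733_at without LP-1/Cfz replicate 1, LP-1 replicate 1 or LP-1 replicate 2. The call of 225160_x_at was lost without LP-1/Cfz replicate 1 or 3 or LP-1 replicate 1 or 3, that of 217373_x_at without any array but LP-1/Cfz replicate 2, and that of 229711_s_at without any 1 array. The largest adjusted p in these fits was 0.0816 for 205386_s_at, 0.0848 for 238733_at, 0.0571 for 225160_x_at, 0.112 for 217373_x_at and 0.15 for 229711_s_at. The gene-level call was lost without LP-1/Cfz replicate 1 or any 1 LP-1 array, with adjusted p values of at most 0.0801.

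MDM4, the partner of MDM2 in restraining p53, had 6 probe sets with differences between 0.04 and 0.12, and 0 were called in limma or at an unadjusted p under 0.05. The lowest adjusted p was 0.451, and the 95% intervals together ran between -0.13 and 0.37. Probe set 236814_at read 0.00, 0.05 and 0.01 in LP-1/Cfz and -0.08, -0.06 and -0.00 in LP-1, the only MDM4 probe set without overlap. At gene level the difference was 0.07 (SE 0.049, limma adjusted p = 0.385). Relative to the LP-1 means, MDM2 minus MDM4 was -0.30, -0.27 and -0.35 in LP-1/Cfz and -0.03, 0.04 and -0.01 in LP-1. The groups were already separate on MDM2 alone, so this gap largely restates the MDM2 difference and is no further evidence.

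ZMAT3, a zinc finger protein that binds RNA and is a p53 target, had 5 probe sets, of which 2 were lower in LP-1/Cfz. Probe set 228315_at read -0.14, 0.02 and 0.00 in LP-1/Cfz and 0.35, 0.26 and 0.21 in LP-1, a difference of -0.31 (SE 0.0723, limma adjusted p = 0.0317). Probe set 1555609_a_at read 0.06, 0.10 and -0.07 in LP-1/Cfz and 0.32, 0.28 and 0.28 in LP-1, a difference of -0.27 (SE 0.0676, limma adjusted p = 0.0431). Both were without overlap. The groups were also separate on 227221_at, whose difference of -0.16 (95% interval -0.31 to -0.01) had a limma adjusted p of 0.19, while they overlapped on 219628_at and 225725_at, with a difference of -0.03 each.

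The ZMAT3 calls were sensitive to single arrays. The call of 1555609_a_at was lost without any 1 array (adjusted p between 0.051 and 0.145), and that of 228315_at without LP-1/Cfz replicate 1 or any 1 LP-1 array (adjusted p of at most 0.121). The mean over the 5 probe sets was -0.16 (SE 0.0513, limma adjusted p = 0.0745) and was not called, whereas their median gave -0.22 (adjusted p = 0.0241).

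RRM2B, the p53-inducible small subunit of ribonucleotide reductase, read 0.07, -0.01 and -0.00 in LP-1/Cfz and 0.00, 0.02 and -0.04 in LP-1 on 223342_at. The groups overlapped, with a difference of 0.03 (95% interval -0.11 to 0.17, limma adjusted p = 0.815). TP53I3, an oxidoreductase that p53 induces, read 0.48, 0.61 and 0.46 in LP-1/Cfz and 0.44, 0.52 and 0.55 in LP-1 on 210609_s_at, with a difference of 0.01 (95% interval -0.14 to 0.17, limma adjusted p = 0.925). Both groups overlapped for TP53I3 as well.

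The wider pathway was described with 6 gene lists, at 1 value per gene, beside a median difference of 0.02 over all 19775 genes and 16.7% of them called. Of 133 distinct measured genes, 31 were lower and 12 higher, with a median of -0.05. Among 26 of 32 listed regulators of p53, 1 was higher, 6 lower and 19 not called (median -0.07). The lower calls numbered 2 without LP-1 replicate 2 or 3, 3 without LP-1 replicate 1 or LP-1/Cfz replicate 1 and 4 without LP-1/Cfz replicate 2 or 3. The lower ones included SIRT1 (-0.43, limma adjusted p = 0.00749), a deacetylase of p53, TP53INP1 (-0.34, 0.00567), a p53-induced nuclear protein, and the acetyltransferases CREBBP (-0.23, 0.0124) and KAT5 (-0.19, 0.0498). CHEK1, the checkpoint kinase, fell by 0.19 on the log2 scale (0.0457), and PPP1R13L, an inhibitor of p53, was higher by 0.21 (0.0452). TP53INP1 had 2 of 3 probe sets called, with differences between -0.59 and 0.04. Called probe sets numbered 1 of 4 for CREBBP and for CHEK1, 1 of 3 for KAT5 and 0 of 1 for PPP1R13L. The calls of SIRT1 and TP53INP1 held whichever array was left out, CREBBP was lost without LP-1 replicate 2 or 3, KAT5 without any 1 array, CHEK1 without any but LP-1/Cfz replicate 2, and PPP1R13L without any but LP-1/Cfz replicate 1.

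Of 46 of 50 listed other p53 target genes, 6 were higher, 9 lower and 31 not called (median -0.02). CDKN1A, the p21 inhibitor of cyclin-dependent kinases, read 0.26, 0.45 and 0.32 in LP-1/Cfz and -0.22, -0.32 and -0.26 in LP-1, a difference of 0.61 (SE 0.063, limma adjusted p = 0.000577) without overlap. The sestrins SESN2 (0.96, 0.000124) and SESN1 (0.94, 6.89e-05), stress proteins that restrain mTORC1, TP53INP2 (0.48, 0.0202), an autophagy factor, and PERP (0.30, 0.019), a membrane protein that takes part in cell death, were also higher. FAS, the death receptor, read -1.81, -1.76 and -1.95 in LP-1/Cfz and -0.01, -0.06 and -0.03 in LP-1, the largest difference in the list at -1.81 (SE 0.0608, limma adjusted p = 1.73e-06), and its 5 probe sets, all called, ranged between -2.32 and -0.40.

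BAX, the effector of mitochondrial cell death, fell by 0.71 on the log2 scale (SE 0.077, limma adjusted p = 0.000734), with both of its probe sets called. PLK2, a stress-induced kinase, differed by -0.49 (0.027), SUSD6, a membrane protein, by -0.44 (0.00568) and POLH, the translesion DNA polymerase, by -0.39 (0.00421). PERP had 2 of 5 probe sets called, with differences between 0.02 and 0.67, and POLH 5 of 6. The list thus held called genes in both directions. With 1 array left out its higher calls numbered between 4 (without LP-1/Cfz replicate 1) and 7, and its lower calls were 5 without LP-1 replicate 2 or 3 and 7 without any other array. The calls of CDKN1A, SESN1, SESN2, FAS, BAX, SUSD6 and POLH held whichever array was left out. TP53INP2 was lost without LP-1/Cfz replicate 1, PLK2 without LP-1/Cfz replicate 1 or LP-1 replicate 2 or 3, and PERP without any array but LP-1/Cfz replicate 3.

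Among 18 of 21 GADD45 partners and p38 and JNK kinases, 0 were higher (0 also at an unadjusted p under 0.05), 8 lower and 10 not called, with a median of -0.16. The lower calls numbered 2 without LP-1 replicate 1, 3 without LP-1 replicate 3, 4 without LP-1/Cfz replicate 1, 5 without LP-1 replicate 2 and 6 without LP-1/Cfz replicate 2 or 3, and 5 with the arrays quantile normalized again. MAP3K4, the kinase that GADD45 proteins bind and activate, read -0.55, -0.57 and -0.58 in LP-1/Cfz and -0.32, -0.27 and -0.26 in LP-1, a difference of -0.28 (SE 0.0469, limma adjusted p = 0.00528). CDK1, the mitotic kinase, read -0.47, -0.44 and -0.56 in LP-1/Cfz and -0.10, -0.12 and -0.18 in LP-1, a difference of -0.36 (SE 0.054, limma adjusted p = 0.00334) that was called on all 4 of its probe sets. On both genes the groups were separate and the call held whichever array was left out.

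The stress kinase MAPK13 differed by -0.42 (limma adjusted p = 0.0332), MAPKAPK2, a kinase downstream of p38, by -0.34 (0.0145) and ING1, a chromatin reader that binds p53, by -0.26 (0.0109). MAPK13 was called without LP-1/Cfz replicate 3 and lost without any other array, and with the arrays quantile normalized again its difference was 0.022. The call of MAPKAPK2 was lost without LP-1/Cfz replicate 1, LP-1 replicate 1 or LP-1 replicate 3, and that of ING1 without LP-1 replicate 1. The 3 probe sets of MAPKAPK2 ranged between -1.02 and 0.22, with 1 of them called. MAPK13 had 0 of 2 probe sets called and ING1 2 of 4.

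Of 19 listed factors known to control GADD45 genes, 17 were measured, of which 3 were higher, 3 lower and 11 not called (median 0.04). FOXO3 read -0.04, -0.10 and -0.13 in LP-1/Cfz and -0.53, -0.51 and -0.46 in LP-1, a difference of 0.41 (SE 0.0508, limma adjusted p = 0.00141) called on all 4 of its probe sets. ATF4, the factor of the integrated stress response, was higher by 0.26 (0.00711) and CEBPB, a factor of the inflammatory response, by 0.19 (0.0295). NFKB1 and RELA, subunits of NF-kappaB, differed by -0.35 (0.00303) and -0.21 (0.0313), and E2F1, a cell cycle factor, by -0.32 (0.00438). RELA had 1 of 2 probe sets called and CEBPB 0 of 1. The calls of FOXO3, ATF4, NFKB1 and E2F1 held whichever array was left out, while RELA was lost without any 1 array and CEBPB without any but LP-1/Cfz replicate 3.

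In the BTG and TOB family with the CCR4-NOT deadenylase, to which BTG2 belongs, 1 of 18 genes was higher, 4 were lower and 13 not called (median -0.12), with 2 lower calls left without LP-1 replicate 3. BTG1, the closest relative of BTG2, read -0.33, -0.26 and -0.27 in LP-1/Cfz and 0.23, 0.29 and 0.24 in LP-1, a difference of -0.54 (SE 0.049, limma adjusted p = 0.000293) without overlap, with 2 of its 3 probe sets called. PRMT1, an arginine methyltransferase that binds BTG1, differed by -0.31 (0.0166), the deadenylases CNOT6 by -0.26 (0.0141) and CNOT7 by -0.26 (0.00717), and BTG4 by 0.22 (0.0332). CNOT7 had 4 of 6 probe sets called, with differences between -0.50 and 0.05. PRMT1 and CNOT6 each had 1 of 2 called, and BTG4 0 of 2. BTG1 and CNOT7 kept their calls whichever array was left out. PRMT1 was lost without LP-1 replicate 1 or 3, CNOT6 without LP-1 replicate 2 or 3, and BTG4 without LP-1/Cfz replicate 2 or any 1 LP-1 array.

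Of 10 paralogues and enzyme partners of the members, 1 was higher, 2 were lower and 7 not called (median -0.03), with 1 lower call left whichever array was left out. RRM2, the cell cycle dependent subunit that RRM2B can replace, read -0.53, -0.61 and -0.66 in LP-1/Cfz and -0.23, -0.20 and -0.25 in LP-1, a difference of -0.37 (SE 0.0525, limma adjusted p = 0.00251) that held whichever array was left out. RRM1, the large subunit, differed by -0.17 (0.0396, lost without any 1 array). ZMAT1 differed by 0.26 (0.0189, lost without LP-1/Cfz replicate 2, LP-1 replicate 1 or LP-1 replicate 3). RRM1 had 0 of 2 probe sets called and ZMAT1 1 of 2. RRM2 was thus lower in LP-1/Cfz while the interval of RRM2B included 0.

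**Figure D4:**
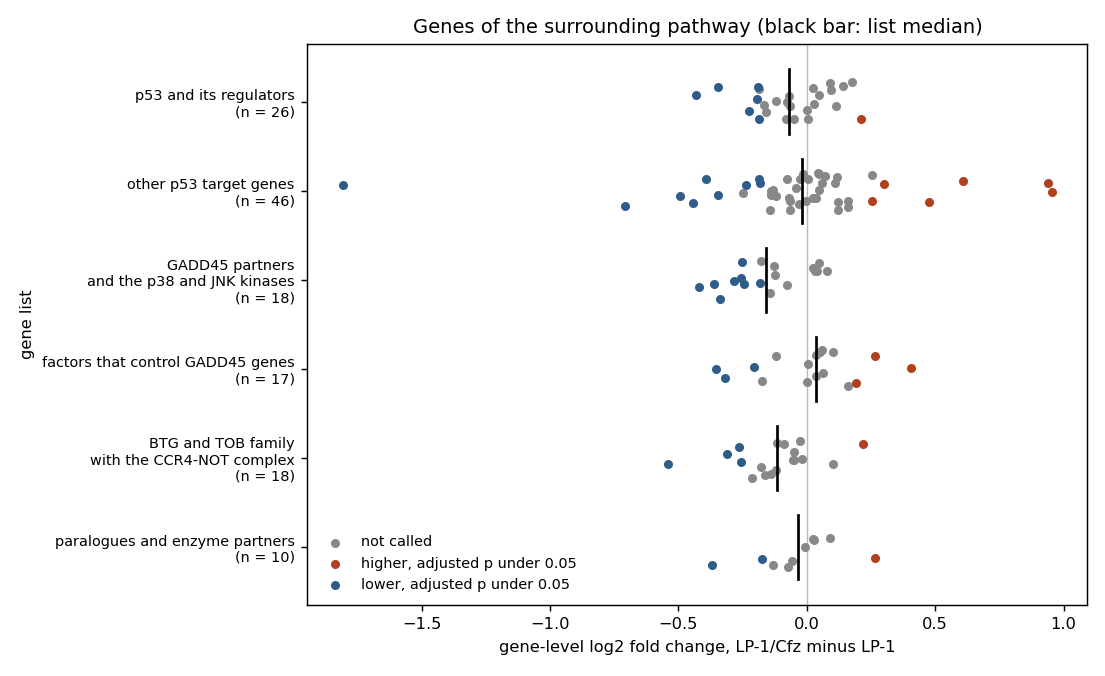
Gene-level log2 fold change, LP-1/Cfz minus LP-1 (x axis), of each measured gene in the 6 pathway lists (y axis), with called genes in red (higher) and blue (lower), others in grey and a black bar at the list median. The other p53 target genes spread furthest, between -1.81 (FAS) and 0.96 (SESN2), and the list of GADD45 partners holds 8 lower and 0 higher calls, with 2 lower calls left without LP-1 replicate 1 and 5 after quantile normalization.

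The members lie on chromosomes 12 (MDM2), 1 (MDM4 and GADD45A), 19 (GADD45B), 9 (GADD45G), 8 (RRM2B), 3 (ZMAT3) and 2 (TP53I3), and the 10 measured genes on each side, in RefSeq order, were examined. Of the 20 neighbours of GADD45B 0 were higher (limma, and 0 at an unadjusted p under 0.05) and 2 lower, LMNB2 (-0.29) and SF3A2 (-0.28). Differences over these 20 ranged between -0.29 and 0.11. Of the neighbours of MDM2, 4 were lower, BEST3 (-1.29), MDM1 (-0.85), RAP1B (-0.36) and CPSF6 (-0.20), with a median of -0.03 over the 20, and 0 were higher (1 at an unadjusted p under 0.05). GADD45G had 1 higher neighbour, AUH (0.48), and 2 lower ones, NFIL3 (-0.70) and LINC00484 (-0.66). ZMAT3 had 0 higher (0 at an unadjusted p under 0.05) and 3 lower, GNB4 (-0.51), TBL1XR1 (-0.34) and ZNF639 (-0.22). Of the GADD45A neighbours 3 were higher, DIRAS3 (0.97), DEPDC1 (0.23) and LEPROT (0.20), and 0 lower (0 at an unadjusted p under 0.05). RRM2B had 1 higher neighbour, ANKRD46 (0.26), and 3 lower ones, FZD6 (-1.18), CTHRC1 (-1.03) and NCALD (-0.33), and TP53I3 had 1 higher, KLHL29 (0.58), and 2 lower, UBXN2A (-0.33) and PTRHD1 (-0.27). MDM4 had 0 called neighbours (3 higher and 0 lower at an unadjusted p under 0.05). The GADD45B difference of 0.54, the largest of the members at gene level, was larger than that of any of its 20 neighbours. Of all genes, 6.72% were called higher and 10.0% lower. Whether changes of whole regions took part was not tested.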

How the data were processed

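Total RNA of 3 LP-1/Cfz and 3 LP-1 samples was hybridised to 1 array each. The deposited log2 values cover 54613 probe sets and were made by the authors with RMA (version not given in the sources used here) and centred per probe set on an unstated baseline, so that levels and signal over background are unknown, and the number of arrays limits the precision. Array control probe sets were not used here. The labels and the study's methods give different serum contents. The linear fold cutoff of 1.7 in the methods served as an alternative.

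Probe sets were named through the platform annotation (41091 with 1 gene, 1801 with several, 11721 with none), and those with several genes name none here. Groups were compared in limma 3.58.1 (R 4.3.3; lmFit and eBayes, two-sided, no covariates) with p-values adjusted over the whole table by the Benjamini-Hochberg method and called at 0.05, and likewise on the mean of each gene's single-gene probe sets. Standard errors and 95% intervals are those of the moderated fit. The computation was run on simulated arrays of independent normal values with inserted changes, which checks the code and not the calls made here. Tables and motif searches were made in Python 3.11.15 with pandas 2.3.3. Promoter windows came from RefSeq (GRCh38.p14), with entries used for 7 of the 9 listed genes, and motifs were searched on both strands.

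The members, the 6 pathway lists, the 4 marker lists and the tests were chosen with earlier results of these data known. All members were named with all their probe sets, in each list as many as 5 called genes in each direction with the largest difference, CDKN1A and RRM2 whatever their values, and the 3 genes most like the member with the largest gene-level difference. Of the neighbours of each member, all called ones were named, a choice made after their values were seen. Alternatives were the replicate number as a block, each array left out, quantile normalization or median centring of the arrays, array weights, robust eBayes, leaving out probe sets ending in _s_at or _x_at, single-gene probe sets only, a test against a 1.2-fold change, the 1.7-fold cutoff and the median of probe sets.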

Additional observations from a re-analysis of the deposited data

How the results depend on the processing

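The 3 higher GADD45B probe sets were called in every alternative fit that tested them, including the test against a 1.2-fold change, with differences between 0.56 and 0.91. With probe sets ending in _s_at or _x_at left out, 0 higher member calls and 4 lower ones were left. The 3 GADD45B calls were not tested there, nor were those of MDM2 205386_s_at, 217373_x_at, 225160_x_at and 229711_s_at. ZMAT3 1555609_a_at was tested there and lost its call. The 9 lower member calls numbered between 2 and 7 with 1 array left out (2 without LP-1/Cfz replicate 1 or LP-1 replicate 1, 3 without LP-1 replicate 3, 4 without LP-1 replicate 2, 5 without LP-1/Cfz replicate 3 and 7 without LP-1/Cfz replicate 2), and were 0 against a minimum 1.2-fold change. No member passed the 1.7-fold cutoff, giving 0 higher and 0 lower. GADD45G and MDM2 217542_at lost their calls only against the 1.2-fold minimum (adjusted p = 0.46 and 0.0934). Called member genes were between 1 and 2 lower with 1 array left out. Quantile normalization gave 2 higher member genes, with GADD45A at 0.25 (adjusted p = 0.0472), turned MAPK13 to 0.022 (adjusted p = 0.911) and gave ZMAT3 as lower at -0.19 (adjusted p = 0.04). The cause was not tested. The pathway list calls, 12 higher and 31 lower, were between 7 and 12 and between 14 and 24 with 1 array left out, the fewest without LP-1 replicate 3 (7 and 14). Over all probe sets the 2323 higher and 3691 lower calls were between 1291 and 2356 and between 2062 and 3081 with 1 array left out, 1258 and 2037 without _s_at and _x_at probe sets, 443 and 869 against the 1.2-fold minimum, and 247 and 620 at the 1.7-fold cutoff.

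With the replicate number as a block, 4 member probe sets were lower in place of 9. Same-numbered arrays had correlations of deviations of -0.05, 0.13 and -0.01, and differently numbered ones between -0.12 and 0.13. With 3 arrays per group, these correlations cannot tell whether the numbers pair the samples.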
